A study of Arabidopsis thaliana with 18 samples.

Results

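The effect of PID overexpression in line P10 on the leaf transcriptome was followed between 9 and 16 days after stratification (DAS). The quantity of interest was the interaction, that is, the P10 minus WT difference at 16 DAS less the same difference at 9 DAS, on the log2 scale. A positive interaction means that a transcript moved up in P10 relative to WT between the days, and a negative one that it moved down. Where levels are printed for 16 DAS alone, the gap there is not the interaction, which also takes in the gap at 9 DAS. Of the 28642 loci in the deposited tables, 15932 had enough reads to be tested, and 688 of these passed an adjusted p of 0.05 together with a log2 interaction beyond 0.75 in either direction, which is 4.32% of the genes tested. These 688 genes were then sorted by the change with age in each genotype. The largest class held 161 genes that rose in WT and did not pass in P10. A further 105 fell in WT and did not pass in P10, 105 rose in P10 alone, 78 fell in P10 alone, 87 rose in both, 41 fell in both, 35 moved in opposite directions and 76 passed in neither genotype.

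RNA was prepared from the first pair of leaves of Arabidopsis thaliana Col-0 (WT) and of a pair of independent lines, P10 and P21, that carry the PID cDNA behind the Cauliflower Mosaic Virus 35S promoter in the Columbia background. The promoter is known to be active in most cell types, which whole-leaf libraries do not resolve, and each line is a single transgenic line. All plants were grown on agar medium with sugar under long days, without further treatment, and the labels call the leaves proliferating at 9 DAS and, in the older samples, expanding at 16 DAS. The interaction rests on 12 libraries, 3 each of WT and P10 at each day, and P21 has values for 2 libraries per day. Nothing in the labels says that the replicates came from separate cultures, so p-values measure the spread between these samples only.

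PID is a protein kinase of the AGC family that phosphorylates PIN auxin efflux carriers and so takes part in setting the direction of auxin transport. A young Arabidopsis leaf first grows by cell division and later by cell expansion, while chloroplasts mature and defence compounds such as glucosinolates build up. Abscisic acid (ABA), the hormone of drought and dormancy, acts through receptors and type 2C protein phosphatases on bZIP factors that bind the ABA-responsive element (ABRE) in promoters, whose core holds ACGTGNC. Anthocyanins are flavonoid pigments made through DFR and LDOX under the control of MYB, bHLH and WD40 proteins. Since whole leaves were sampled, fewer cells of a type and less RNA per cell cannot be told apart in any of the values that follow.

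Promoters of 5 genes described in the next paragraphs, picked after their matches were seen, are shown because their transcripts moved apart between WT and P10 with age while the number of ABRE cores before them ranged from 3 to 0. Each is the 250 bases before the RefSeq gene start, read from TAIR10.1 in the direction of transcription, with matches to the ABRE core ACGTGNC on either strand in capitals. RD29B lies at chr5:21236771-21237020 on the plus strand, SIP2 at chr3:21293172-21293421 on the minus strand, ZW9 at chr1:21614170-21614419 on the minus strand, DI21 at chr4:9028012-9028261 on the plus strand and HIS1-3 at chr2:7845673-7845922 on the plus strand.
RD29B: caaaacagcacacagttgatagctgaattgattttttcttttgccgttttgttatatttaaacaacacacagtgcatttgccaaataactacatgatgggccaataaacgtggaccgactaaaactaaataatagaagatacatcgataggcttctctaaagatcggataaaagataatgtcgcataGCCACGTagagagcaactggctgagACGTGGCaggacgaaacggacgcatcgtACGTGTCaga
SIP2: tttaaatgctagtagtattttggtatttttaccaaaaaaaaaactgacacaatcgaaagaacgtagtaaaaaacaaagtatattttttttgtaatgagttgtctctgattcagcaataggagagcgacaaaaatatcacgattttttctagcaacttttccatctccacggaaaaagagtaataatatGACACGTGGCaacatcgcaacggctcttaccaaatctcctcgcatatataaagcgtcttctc
ZW9: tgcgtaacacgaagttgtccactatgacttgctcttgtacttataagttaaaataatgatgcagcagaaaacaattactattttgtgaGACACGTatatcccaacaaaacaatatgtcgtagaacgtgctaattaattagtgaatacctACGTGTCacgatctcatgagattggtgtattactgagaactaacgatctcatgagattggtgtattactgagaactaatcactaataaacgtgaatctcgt
DI21: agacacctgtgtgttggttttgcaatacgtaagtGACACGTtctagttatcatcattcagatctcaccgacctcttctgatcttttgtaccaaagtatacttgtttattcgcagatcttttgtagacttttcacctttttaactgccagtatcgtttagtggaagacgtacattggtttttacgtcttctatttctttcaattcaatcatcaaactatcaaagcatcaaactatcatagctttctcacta
HIS1-3: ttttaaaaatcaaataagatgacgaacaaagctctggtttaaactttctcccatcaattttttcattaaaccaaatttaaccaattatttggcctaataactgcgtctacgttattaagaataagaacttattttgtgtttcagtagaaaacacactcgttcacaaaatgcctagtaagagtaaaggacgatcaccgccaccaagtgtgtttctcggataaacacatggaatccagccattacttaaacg

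RD29B held 3 matches, which begin 63, 38 and 10 bases before the start. SIP2 and ZW9 each held 2, overlapping in SIP2, DI21 held 1 and HIS1-3 held none in this window. Over all 15909 promoters of tested genes 9.94% held the ABRE core. The share was 16.0% (50 of 313) among genes with a positive interaction and 9.60% (36 of 375) among those with a negative one. It was 16.2% (17 of 105) where WT fell and P10 did not pass, 15.2% (16 of 105) where P10 alone rose, 13.04% (21 of 161) where WT rose and P10 did not pass and 3.85% (3 of 78) where P10 alone fell. In the other classes it was 14.5% (11 of 76) where neither passed, 14.3% (5 of 35) for opposite directions, 11.5% (10 of 87) where both rose and 7.32% (3 of 41) where both fell. The G-box CACGTG, which can overlap the ABRE core, stood in 7.61% of all promoters, in 12.8% of those with a positive and in 9.33% of those with a negative interaction. Shares of the telo-box core AAACCCT were 6.39%, 4.47% and 5.07% in the same order, and those of the I-box core GATAAG 12.5%, 11.5% and 13.6%. Matches are a description of letters and not of bound sites.

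PID itself (AT2G34650, chr2:14589760-14591788 in TAIR10, counted over the whole gene region) was read first, as a check of the labels. Its level is given in CPM, the unique gene reads of a gene relative to all those of its library after TMM scaling, in the usual CPM unit. WT stood at 4.77, 5.98 and 5.46 CPM at 9 DAS and at 3.22, 4.27 and 3.79 CPM at 16 DAS, whereas P10 stood at 511, 451 and 527 CPM at 9 DAS and at 771, 754 and 895 CPM at 16 DAS. Every P10 library was thus far above every WT library at both days, and the P10 libraries of the later day were all above those of the earlier day. PID rose with age in P10 by 0.70 on the log2 scale (adjusted p = 0.00044), which is under the fold threshold, and its log2 change in WT was -0.51 (adjusted p = 0.23). The interaction was 1.21 (SE 0.28, adjusted p = 0.021 in edgeR's quasi-likelihood test). Without WT replicate 2 or 3 at 9 DAS or WT replicate 1 at 16 DAS it no longer passed, with values of 1.13, 1.19 and 1.08, and it did not pass under the Wald test of DESeq2 at 1.21. In P21 PID went the other way with age, from 940 and 961 CPM to 368 and 631 CPM, a log2 change of -0.93 (adjusted p = 0.0016), and the age change of P10 exceeded that of P21 by 1.62 (SE 0.26, adjusted p = 0.000478). Reads of the transgene and of the native gene cannot be told apart here.

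Far fewer genes passed between P10 and WT at 9 DAS than at 16 DAS. At 9 DAS 52 genes passed the same thresholds between P10 and WT, 0.326% of those tested, 23 higher (0.144%) and 29 lower (0.182%) in P10. At 16 DAS 2520 did, or 15.8%, 1281 higher (8.04%) and 1239 lower (7.78%). WT changed in 5761 genes with age (36.2%) and P10 in 4960 (31.1%). The count at 9 DAS was 22 without WT replicate 1, 81 without WT replicate 2, 27 without P10 replicate 1 and 33 without P10 replicate 3 of that day. Among the 688 interaction genes, 554 passed between P10 and WT at 16 DAS, 19 at 9 DAS, 8 at both days and 123 at neither. These counts use the same libraries as the interaction and describe where it came from. In 420 of the 688, the age change of P10 lay nearer 0 than that of WT. Genes sorted as moving in WT alone tend to meet this by the sort itself, and the share over all genes is not given here. Over all genes the median absolute log2 age change was 0.61 in WT and 0.54 in P10.

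The 688 comprised 313 genes with a positive interaction (1.96% of those tested) and 375 with a negative one (2.35%), beside a median of -0.003 over all genes. On log2 RPKM, which is scaled to the mapped reads alone, the median over all genes moved to 0.17, 0.20 or 0.18 with a pseudocount of 1, a pseudocount of 0.1 or a minimum mean RPKM of 1, and the split became 581 to 197, 460 to 145 and 550 to 176, so 74.7% to 76.0% were positive in place of 45.5%. The count also depended on single libraries. It was 383 without WT replicate 1 at 9 DAS, 422 without WT replicate 1 at 16 DAS, 425 without WT replicate 3 at 16 DAS and 380 without P10 replicate 1 at 16 DAS. Some 271 genes were called in every one of the 12 fits that leave out 1 library. At the edge of the threshold, TRP1 with -0.98, AT5G11090 with 1.11 and COL5 with -1.0 lay just inside, and AT2G37230 with -1.33, AT5G11580 with 1.12 and PSAO with -0.82 just outside.

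**Figure D1:**
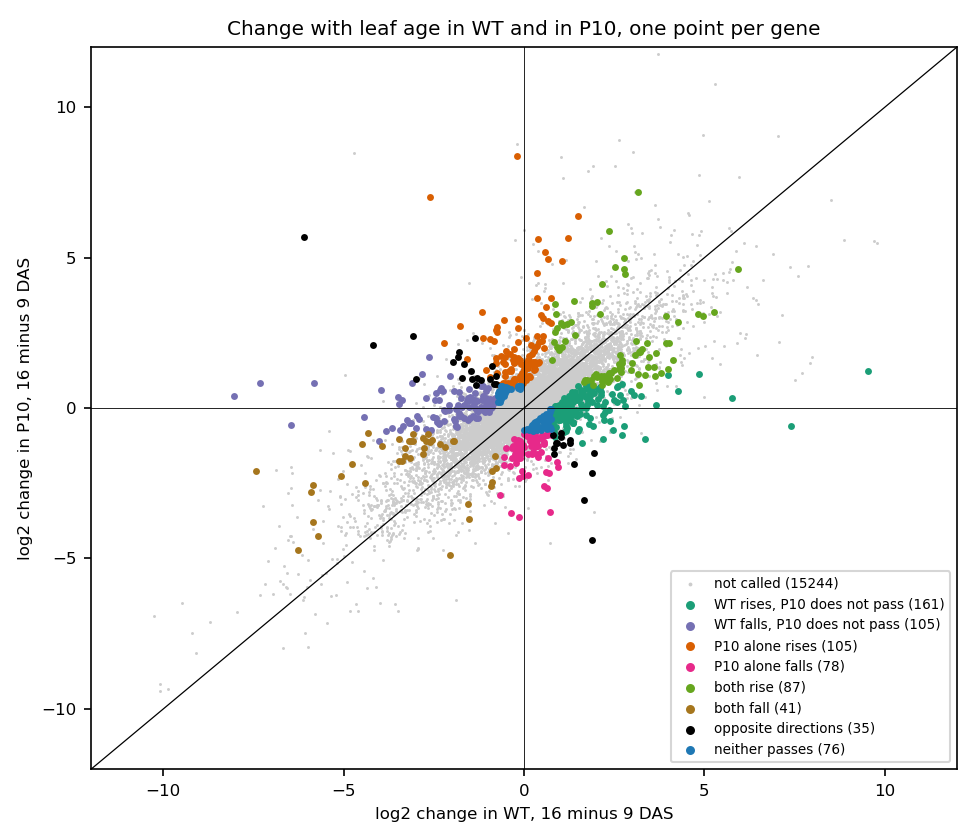
Log2 change from 9 to 16 DAS in WT (x axis) against that in P10 (y axis), 1 point per tested gene, with the 688 interaction genes coloured by class and the other 15244 in grey. The diagonal marks equal change, and the coloured points leave it along both axes, 161 to the right near a P10 change of 0 and 105 to the left.

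Libraries held 1193042 to 4695692 unique gene reads, the shallowest being P10 replicate 1 at 16 DAS. The labelled tissue matched its markers. Leaf genes such as those for Rubisco and the light-harvesting proteins summed to 35364 to 57696 CPM in every library, none of the 5 flower and seed markers reached the read minimum, and of 6 root markers only the iron transporter IRT1 was tested and of 6 meristem markers only 1. The meristem gene STM had 18 reads over WT and 13 over P10 at 9 DAS and 0 in both at 16 DAS. A second library index was shared by WT and P10 at 9 DAS and another by all other libraries, so that day and index cannot be told apart within WT or within P10, while the interaction compares genotypes under the same index at each day. Clock genes set replicate 2 of both genotypes apart at 9 DAS. GRP7, a clock-controlled RNA-binding protein, stood at 1337 CPM in WT replicate 2 and 1190 CPM in P10 replicate 2, against 28.4 to 135 CPM in the other 9 DAS libraries. PRR5, an evening-phase clock repressor, stood at 49.3 and 41.0 CPM in the same libraries against 0 to 4.29 CPM in the others. The morning genes ran the other way, with CCA1 at 26.4 and 39.4 CPM in these against 79.6 to 260 CPM in the others and LHY at 3.99 and 12 CPM against 67.7 to 442 CPM. None of the 14 clock genes tested passed in the interaction (1 at an unadjusted p under 0.05, and 1 called by the Wald test of DESeq2), the list median was 0.09, and the count of interaction genes with both replicates left out was 548.

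The largest class, genes that rose in WT as the leaf matured and did not pass in P10, held the enzyme of ethylene synthesis ACS6, the glucosyltransferase UGT74F2 and the phloem lectin PP2-A11. Its 161 genes had a median log2 age change of 1.37 in WT and 0.05 in P10, and 122 of them passed below WT at 16 DAS. The class held 95 genes without WT replicate 1 and 99 without P10 replicate 1 at 9 DAS, and 105, 99 and 102 without WT replicate 1, WT replicate 3 and P10 replicate 1 at 16 DAS. ACS6 (AT4G11280, chr4:6864097-6866116), which makes the ethylene precursor ACC, measured 6.67, 14 and 16.0 CPM in WT and 18.0, 12.3 and 15.2 CPM in P10 at 9 DAS, then 61.1, 36.4 and 104 CPM in WT and 13.4, 10.8 and 10.5 CPM in P10 at 16 DAS. The groups overlapped at 9 DAS, and at 16 DAS every WT library lay above every P10 library. The interaction of ACS6 was -2.81 (SE 0.55, adjusted p = 0.013).

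UGT74F2 (AT2G43820), which glucosylates salicylic acid and anthranilate, stood near 33.4, 29.9 and 33.9 CPM in WT and 23.4, 31.1 and 31.6 CPM in P10 at 9 DAS. At 16 DAS WT reached 160, 66 and 145 CPM and P10 22.6, 13.9 and 21.3 CPM, again without overlap, for an interaction of -2.51 (SE 0.42, adjusted p = 0.0051). PP2-A11 (AT1G63090), a phloem protein, was at 8.84 to 15.9 CPM in all libraries but those of WT at 16 DAS, which held 62.1, 43.4 and 84.9 CPM. The change gave an interaction of -2.39 (SE 0.38, adjusted p = 0.0019). AT3G18773, annotated as a RING/U-box protein, showed the same shape, from 3.70 to 7.28 CPM in both genotypes at 9 DAS to 72.0, 58.8 and 55.3 CPM in WT and 6.71, 2.32 and 9.25 CPM in P10, with -2.84 (SE 0.50, adjusted p = 0.0036). The uncharacterized AT5G59080 (-2.60) and the legume lectin gene AT3G15356 (-2.25) completed the 6 genes of this class with the largest interaction, and in both the WT libraries at 16 DAS lay above all 3 of P10.

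P21, which the sort did not use, also rose in many genes of this class. Of the 161 genes 103 rose in P21 with age and none fell, with a median P21 age change of 1.03. Among all genes tested in P21, 12.7% rose and 11% fell. The class was picked for a rise in WT, and the P21 share among all 3017 genes that rose in WT is not given here. Other classes were likewise sorted by the WT and P10 changes, so their P21 counts carry the same limit. ACS6 went from 8.27 and 14.3 CPM to 133 and 31.4 CPM in P21, where both later libraries were above both earlier ones. Its age change in P10 fell short of that in P21 by a log2 difference of -3.28 (SE 0.93, adjusted p = 0.0391). The same test passed for AT3G18773 (-3.81), AT5G59080 (-2.12), PP2-A11 (-1.59) and AT3G15356 (-2.71). UGT74F2 did not rise in P21 by the test, with 26.2 and 24.8 CPM at 9 DAS and 78.1 and 25.2 CPM at 16 DAS. P21 does not share the library index of P10 at 9 DAS, so index and line cannot be told apart in this comparison.

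**Figure D2:**
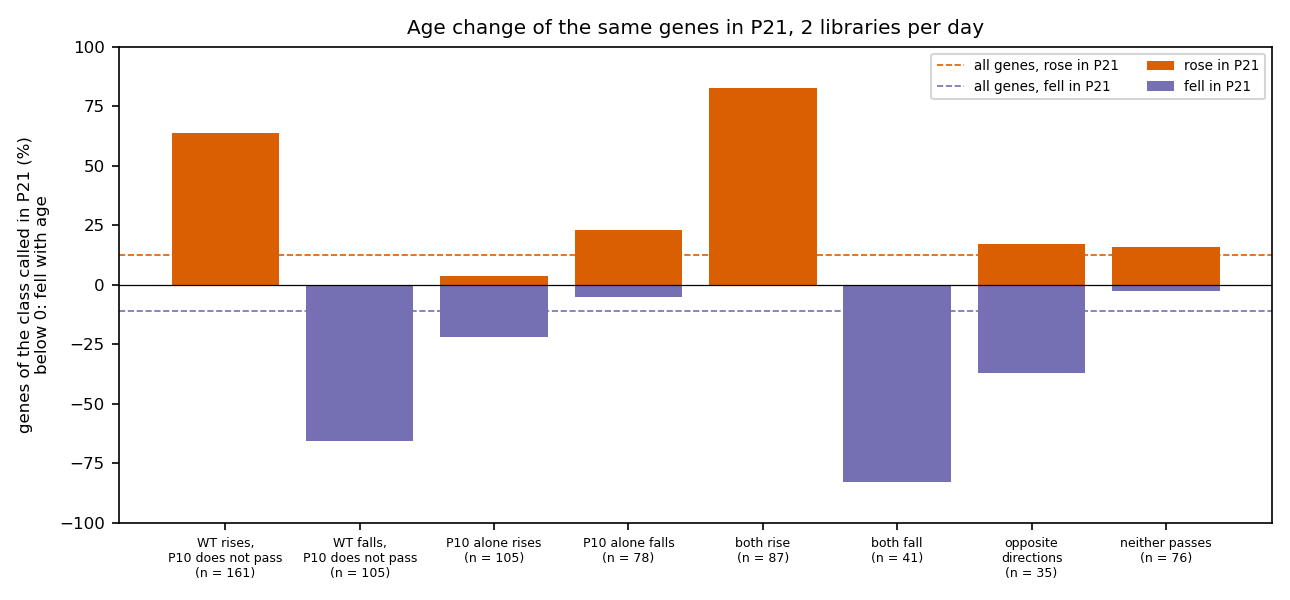
Share of the genes of each class that rose (upward bars) or fell (downward bars) with age in P21, in percent, n = 2 libraries per day, with dashed lines at the shares among all genes tested, 12.7% and 11%. Bars of the WT classes point the way WT moved, with 103 of 161 and 69 of 105 genes called in P21, and those of the P10 classes stay short or point the other way. The WT classes were picked by the WT change, and P21 shares among all genes that rose or fell in WT are not shown.

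Genes that fell in WT with age and did not pass in P10 included drought-induced DI21, the TRAF-like gene ZW9 and the late genes of anthocyanin synthesis. The 105 genes had a median log2 age change of -1.81 in WT and 0.04 in P10, and 87 passed above WT at 16 DAS. The class held 52 genes without WT replicate 1 and 64 without P10 replicate 1 at 9 DAS, 64, 67 and 67 without WT replicate 1, 2 and 3 at 16 DAS, and 59 and 69 without P10 replicate 1 and 3 at 16 DAS. ZW9 (AT1G58270, chr1:21612116-21614117) measured 140, 115 and 146 CPM in WT and 123, 112 and 128 CPM in P10 at 9 DAS. At 16 DAS it held 30.6, 12.1 and 34.9 CPM in WT and 229, 114 and 177 CPM in P10. Levels overlapped at the earlier day and were all higher in P10 at the later day, with an interaction of 2.95 (SE 0.46, adjusted p = 0.0052). DI21 (AT4G15910, chr4:9028461-9029423), named for its induction by drought, crossed over. It was higher in WT at 9 DAS, with 66.7, 50.8 and 75.0 CPM against 24.6, 34.8 and 31.6 CPM in P10, and lower at 16 DAS, with 5.15, 4.27 and 6.82 CPM against 18.4, 19.3 and 18.9 CPM. No libraries overlapped at either day, and the interaction was 2.98 (SE 0.32, adjusted p = 0.00023).

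AT1G14250, annotated as a nucleoside phosphatase of the GDA1/CD39 family, measured 0.965, 3.52 and 2.27 CPM in WT and 24.3, 47.9 and 22.1 CPM in P10 at 16 DAS, having been at 17.1 to 57.6 CPM in all 6 libraries of 9 DAS. AT4G15620, of an uncharacterized membrane protein family, was at 3.86, 6.78 and 6.07 CPM in WT and 43.6, 32.1 and 51.1 CPM in P10 at 16 DAS after 50.3 to 83.8 CPM at 9 DAS. In both, the later WT libraries were the low ones, and interactions were 2.77 (SE 0.58, adjusted p = 0.017) and 2.71 (SE 0.34, adjusted p = 0.00031). The uncharacterized AT5G57785 (2.81) and AT1G27030 (2.73) followed the same course. Of the 105 genes of the class 69 fell in P21 and none rose, with a median P21 age change of -1.35, and all 6 named here were among those that fell. DI21 was the one of these 6 whose age change did not differ between P10 and P21 by the test (log2 difference 0.81, SE 0.35, adjusted p = 0.135).

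Genes that rose in P10 alone were led by the linker histone gene HIS1-3. The class held 105 genes with a median log2 age change of 1.58 in P10 and -0.09 in WT, and 93 passed above WT at 16 DAS. The class held 58 genes without WT replicate 1 and 69 without P10 replicate 3 at 9 DAS, 69 and 65 without WT replicate 1 and 3 at 16 DAS, and 47 and 69 without P10 replicate 1 and 3 at 16 DAS. HIS1-3 (AT2G18050, chr2:7845923-7846884), a linker histone variant induced by dehydration and ABA, was at 1.91, 1.99 and 4.01 CPM in WT and 3.05, 2.16 and 4.42 CPM in P10 at 9 DAS. In WT at 16 DAS it stayed at 4.82, 3.77 and 0.758 CPM, while P10 held 178, 137 and 134 CPM. The later P10 libraries were thus the only high ones, with an interaction of 5.23 (SE 0.60, adjusted p = 0.00028). P21 was at 12.7 and 15.2 CPM at 9 DAS and 3.95 and 0.615 CPM at 16 DAS, so HIS1-3 fell there with age.

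APL4 (AT2G21590), a large subunit of ADP-glucose pyrophosphorylase in starch synthesis, stood at 11.6, 13.6 and 12.9 CPM in WT and at 113, 102 and 98.9 CPM in P10 at 16 DAS, after 12 to 27.7 CPM in both genotypes at 9 DAS. Its interaction was 2.35 (SE 0.30, adjusted p = 0.00031). A second large subunit gene, APL3 (AT4G39210), picked with its values known, went to 419, 168 and 553 CPM in P10 at 16 DAS against 20.3 to 28.1 CPM in WT, with 2.90 (SE 0.62, adjusted p = 0.031). The APL3 call was lost in 9 of the 12 fits that leave out 1 library, with values of 2.51 to 3.04, and held only without WT replicate 3 at 9 DAS or P10 replicate 2 or 3 at 16 DAS. SIP2 (AT3G57520), a raffinose-cleaving galactosidase, started lower in P10, at 57.2, 62.8 and 48.7 CPM against 157, 204 and 151 CPM in WT at 9 DAS, and ended higher, at 525, 373 and 544 CPM against 252, 179 and 277 CPM. Unlike the others it also rose in P21, from 30.3 and 33.7 CPM to 174 and 112 CPM.

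Transcripts of MYB3, a repressor of phenylpropanoid genes, were at 85.5, 35.1 and 80.8 CPM in P10 and 25.4, 36.2 and 25.8 CPM in WT at 16 DAS. P10 replicate 2 lay within the WT range there, and the interaction was 2.29 (SE 0.41, adjusted p = 0.0053). The lipid-transfer family gene AT3G53980 reached 83.0, 70.3 and 113 CPM in P10 at 16 DAS against 1.52 to 3.54 CPM in WT, and AT1G17940, annotated with a BRO1-like domain, 51.1 to 51.9 CPM against 8.29 to 11.6 CPM. Interactions were 3.36 (SE 0.50, adjusted p = 0.001) and 2.38 (SE 0.34, adjusted p = 0.00073). In P21 only 4 of the 105 genes of this class rose with age and 23 fell. HIS1-3, AT3G53980 and APL4 were among those that fell, and their age changes differed from P10 by 8.36, 7.35 and 4.16 on the log2 scale.

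Genes that fell in P10 alone included the thionin gene THI2.2 and the brassinosteroid oxidase gene BR6OX2. These 78 genes had a median log2 age change of -1.31 in P10 and 0.16 in WT, and 73 passed below WT at 16 DAS. The class held 46 genes without WT replicate 1 and 51 without P10 replicate 1 at 16 DAS. THI2.2 (AT5G36910, chr5:14561817-14562750), which encodes a small antimicrobial peptide, was at 72.5, 52.8 and 92.9 CPM in WT and at 40.6, 30.2 and 43.0 CPM in P10 at 9 DAS. By 16 DAS it was at 95.2, 121 and 139 CPM in WT and at 3.35, 10.04 and 9.65 CPM in P10. P10 was lower in every library at both days and far lower at the later one, with an interaction of -2.85 (SE 0.38, adjusted p = 0.00067). BR6OX2 (AT3G30180), the cytochrome P450 of the last step to brassinolide, was at 21.1 to 45.7 CPM in both genotypes at 9 DAS and then at 23.5, 29.1 and 25.8 CPM in WT and 7.55, 8.88 and 7.24 CPM in P10, with -2.17 (SE 0.32, adjusted p = 0.001).

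AT2G10940, a lipid-transfer family gene with many reads, held 865 to 1309 CPM in both genotypes at 9 DAS and 1148, 1098 and 817 CPM in WT against 259, 310 and 266 CPM in P10 at 16 DAS. The fall was seen in all 3 later P10 libraries and in no other group, and gave an interaction of -2.04 (SE 0.25, adjusted p = 0.00031). LACS9, the main plastid acyl-CoA synthetase, held 66.3, 66.3 and 62.2 CPM in WT and 21.0, 12 and 22.9 CPM in P10 at 16 DAS after 47.2 to 62.6 CPM at 9 DAS, with -1.99 (SE 0.27, adjusted p = 0.00067). EMB3120 (-2.23), uncharacterized, and the dehydratase family gene AT3G23940 (-1.76) were the other 2 of the 6. In P21, 18 of the 78 genes rose with age and 4 fell. THI2.2, LACS9 and AT3G23940 rose there while BR6OX2 fell, from 55.5 and 58.1 CPM to 16.7 and 28.0 CPM.

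Opposite changes with age were found for 35 genes, 20 that fell in WT and rose in P10 and 15 that did the reverse. MBP1 (AT1G52040, chr1:19350375-19352782), a myrosinase-binding protein that lies among close paralogs and whose reads may be shared with them, had 31.9, 15.4 and 33.5 CPM in WT and 24.6, 14.2 and 7.59 CPM in P10 at 9 DAS. It then had 3.54, 3.26 and 2.27 CPM in WT and 55.3, 62.6 and 137 CPM in P10 at 16 DAS. The ranges overlapped early and were wide apart later, with an interaction of 5.46 (SE 0.73, adjusted p = 0.0031). OZF1 (AT2G19810), a zinc finger protein of oxidative stress, went from 25.1 to 45.6 CPM over both genotypes to 7.40, 6.78 and 12.9 CPM in WT and 117, 59.9 and 144 CPM in P10, with 3.51 (SE 0.49, adjusted p = 0.0019).

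RAV1 (AT1G13260), a transcription factor with AP2 and B3 domains, moved the other way, from 12.9, 38.4 and 26.9 CPM in WT and 23.4, 37.9 and 15.8 CPM in P10 at 9 DAS to 53.7, 53.5 and 104 CPM in WT and 6.71, 6.95 and 8.04 CPM in P10 at 16 DAS. Every later WT library was above, and every later P10 library below, all those of 9 DAS, with an interaction of -3.24 (SE 0.62, adjusted p = 0.015). ASE2, a leaf isoform of the first enzyme of purine synthesis, had 56.3, 82.9 and 74.3 CPM in WT and 5.87, 10.8 and 14.1 CPM in P10 at 16 DAS after 20.2 to 41.4 CPM at 9 DAS, with -2.30 (SE 0.38, adjusted p = 0.0024). The 6 were completed by AT5G66052 (2.40), uncharacterized, and the transporter family gene AT5G14120 (-2.38). P21 rose in none and fell in 13 of the 20 genes that fell in WT, and rose in 6 and fell in none of the 15 that rose in WT. All 6 named genes differed between P10 and P21 in their age change, from -4.21 for ASE2 to 6.52 for MBP1.

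The remaining classes differed in degree rather than in direction. Of the 87 genes that rose in both genotypes, 27 had a positive and 60 a negative interaction, and of the 41 that fell in both, 33 had a positive one and 8 a negative one. Of the 76 that passed in neither genotype, 23 were positive and 53 negative. Without 1 library these counts dropped by over 1.5 times in several fits. The 87 became 40 without WT replicate 1 and 57 without P10 replicate 1 at 9 DAS, and 57, 44 and 45 without WT replicate 1, WT replicate 3 and P10 replicate 1 at 16 DAS. The 41 became 22, 26 and 25 without WT replicate 1, WT replicate 2 and P10 replicate 1 at 9 DAS, and 19, 25, 20 and 27 without WT replicate 1 or 3 or P10 replicate 1 or 3 at 16 DAS. The 76 became 34, 41, 39 and 44 without WT replicate 1 or 2 or P10 replicate 1 or 3 at 9 DAS, and 33, 39, 40 and 29 without WT replicate 1, 2 or 3 or P10 replicate 1 at 16 DAS. P21 rose in 72 of the 87, fell in 34 of the 41, and rose in 12 and fell in 2 of the 76.

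**Figure D3:**
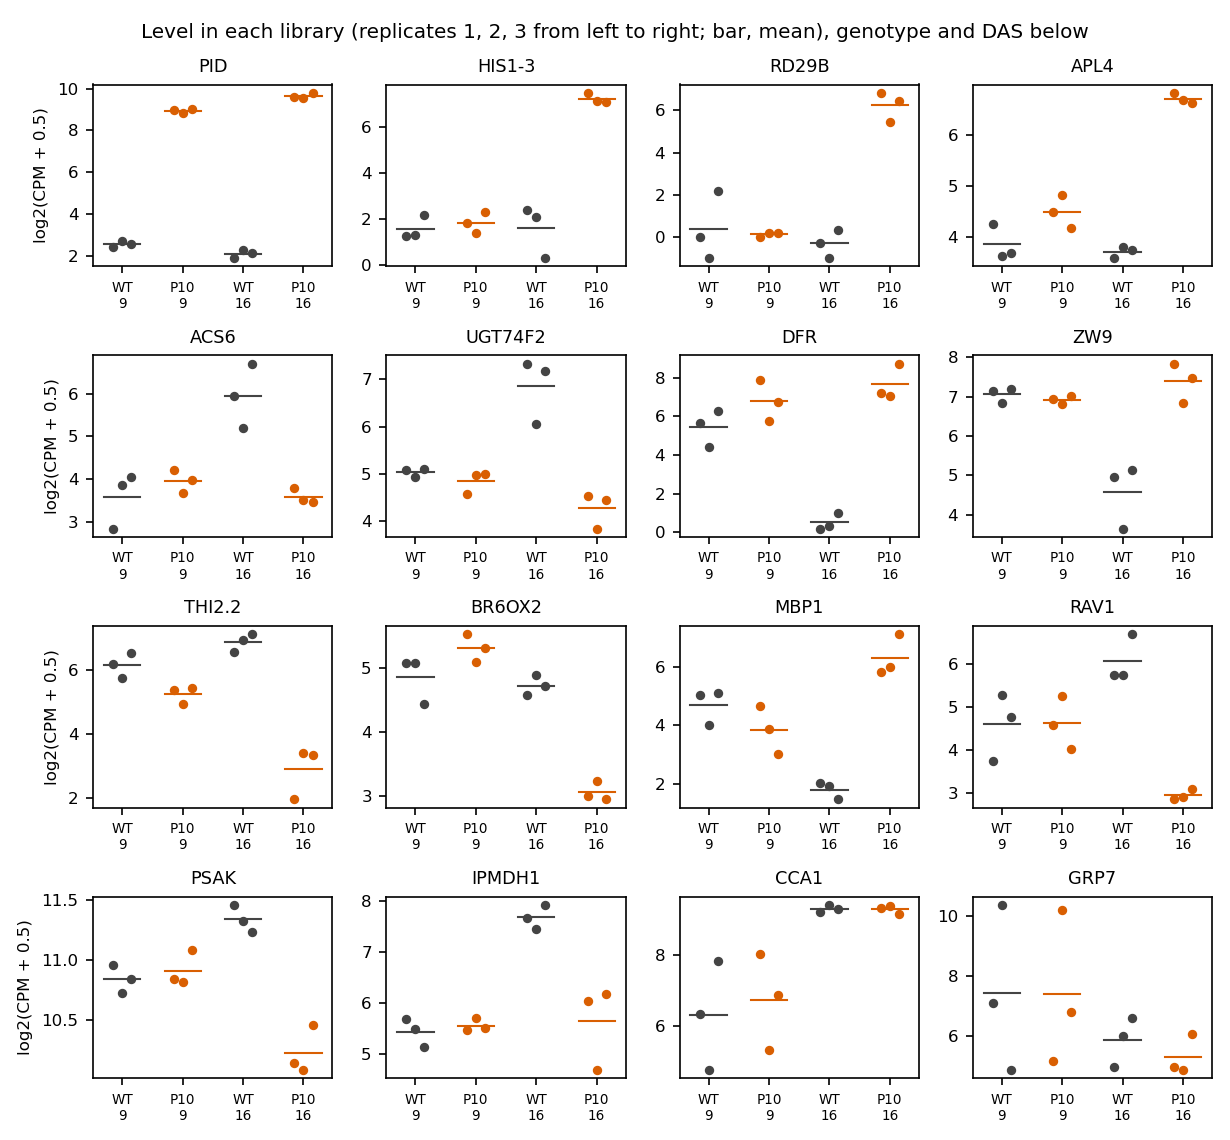
Level of 16 genes in each of the 12 libraries, as log2 of CPM plus 0.5, with WT in grey, P10 in orange, 1 point per replicate and a bar at the mean of n = 3. HIS1-3, RD29B and APL4 were high only in P10 at 16 DAS and DFR was low only in WT at 16 DAS, whereas in CCA1 and GRP7 replicate 2 stood apart at 9 DAS in both genotypes.

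Many ABA genes rose with age in both genotypes and 11 had a P10 minus WT difference that grew with age. Of 48 tested genes of ABA synthesis, signaling and response, 11 had a positive interaction that passed and none a negative one, beside 1.96% and 2.35% of all genes, and the list median was 1.09 against -0.003 for all genes. With age 28 of the 48 rose in WT and 38 in P10, beside 18.9% and 16.8% of all genes. The median log2 age change was 1.49 in WT, 2.95 in P10 and 0.38 in P21, and the summed level went from 1186 to 1434 CPM in WT and 1419 to 1845 CPM in P10 at 9 DAS to 4539 to 5176 CPM and 10013 to 16512 CPM at 16 DAS. The 11 were the phosphatases HAI1 (4.87) and PP2CA (1.49), which hold the pathway off, the bZIP factors ABF2 (1.62) and ABF4 (1.44), the repressor AFP1 (3.53), the homeodomain factors HB-7 (1.85) and HB-12 (1.96), MYB96 (2.23), the catabolic enzyme CYP707A1 (3.12) and the protective proteins RD29B (9.62) and KIN1 (4.30). NCED3, which sets the rate of ABA synthesis, had mean levels of 1.03, 1.17, 7.66 and 73.4 CPM in WT and P10 at 9 DAS and in WT and P10 at 16 DAS, and did not pass (2.82, SE 0.97, adjusted p = 0.11). In P21, 14 of the 48 rose with age and 3 fell.

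RD29B (AT5G52300, chr5:21237056-21239529), whose promoter with 3 ABRE cores is printed above, gave 114, 43.6 and 87.2 CPM in P10 at 16 DAS and 0 to 4.01 CPM in all other WT and P10 libraries. The WT libraries at 16 DAS held 2 reads in all against 466 in P10, a ratio of 312.6 after scaling, with a 95% counting interval of 86.0 to 2589 that covers counting error only. The fitted interaction of 9.62 (SE 1.66, adjusted p = 0.0089) depends on the prior count of the fit and is no bound, and the call was lost without WT replicate 3 at 9 DAS, with 7.03. HAI1 (AT5G59220), a type 2C phosphatase, went from 1.26 to 7.28 CPM in both genotypes at 9 DAS to 16.4, 6.03 and 15.2 CPM in WT and 317, 130 and 262 CPM in P10. Its later groups did not overlap, and its interaction had an adjusted p of 0.034 (SE 1.05). The HAI1 call was lost without WT replicate 1 (5.04) or 3 (3.96) or P10 replicate 2 (4.53) or 3 (4.67) at 9 DAS, without WT replicate 3 (4.98) or P10 replicate 3 (4.77) at 16 DAS, and with replicates 1 and 3 alone at 9 DAS (4.88).

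KIN1, a cold- and ABA-inducible protein nearly identical to KIN2 so that its reads may be shared, held 20.1, 15.8 and 32.2 CPM in P10 at 16 DAS and 0.616 to 2.01 CPM in every other library, with an interaction SE of 0.83 and adjusted p of 0.0071. Some further ABA genes are given here because of their values. AFP1, which acts against ABI5, was at 30.9, 26.4 and 42.5 CPM in WT and 252, 127 and 217 CPM in P10 at 16 DAS after 3.08 to 7.15 CPM at 9 DAS, with an SE of 0.45 and an adjusted p of 0.00031. HB-7 (AT2G46680), an ABA-induced growth regulator, was already higher in P10 at 9 DAS, with 42.9, 47.4 and 44.2 CPM against 11.9, 13.5 and 17.8 CPM, and then reached 1376, 737 and 1181 CPM against 86.5, 110 and 99.3 CPM. Both genotypes thus rose and P10 rose more. CYP707A2, an ABA hydroxylase that is not on the list, had 28.5, 36.3 and 35.4 CPM in P10 at 16 DAS and 0.758 to 5.24 CPM elsewhere in WT and P10, with 3.14 (SE 0.56, adjusted p = 0.0041).

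The late anthocyanin genes DFR, LDOX and 5MAT fell in WT with age to 1.52 CPM or less in every library and did not pass in P10. Of 19 flavonoid genes tested 5 passed with a positive interaction and none with a negative one, beside 1.96% and 2.35% of all genes. The median was 1.04, and the median age change was -0.65 in WT, 1.53 in P10 and -1.94 in P21. DFR (AT5G42800), dihydroflavonol reductase, held 49.6, 20.9 and 77.2 CPM in WT and 234, 52.7 and 106 CPM in P10 at 9 DAS, and then 0.643, 0.753 and 1.52 CPM in WT and 149, 134 and 423 CPM in P10. LDOX (AT4G22880), the next enzyme, held 38.1, 20.9 and 71.4 CPM in WT and 228, 53.6 and 93.6 CPM in P10 at 9 DAS, and 0.322, 0 and 0 CPM in WT against 117, 112 and 272 CPM in P10 at 16 DAS. Groups overlapped at 9 DAS and were separate at 16 DAS in both genes. LDOX had 1 read in WT at 16 DAS and 318 at 9 DAS, a ratio of 390 with a counting interval of 69.6 to 15469, and P10 at 16 DAS stood above WT by 1482 with an interval of 265.5 to 58605.

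5MAT (AT3G29590), which adds malonyl groups to anthocyanins, had no read in WT at 16 DAS. Set against a floor of 3 reads over the group, WT at 9 DAS with 55 reads was at least 22.5-fold higher and P10 at 16 DAS with 261 reads at least 117-fold higher. TT8, the bHLH regulator of these genes, had 1 read in WT and 227 in P10 at 16 DAS, a ratio of 304.5 with a counting interval of 54.1 to 12081. The interaction passed for DFR (adjusted p = 0.039), LDOX (0.032), 5MAT (0.011), TT8 (0.0011) and the glutathione transferase GSTF12 (3.2, adjusted p = 0.0485), which carries pigments to the vacuole. TT4, chalcone synthase at the head of the pathway, did not (0.42, SE 1.14, adjusted p = 0.886). Replicate spread was wide at 9 DAS, and the LDOX and DFR calls were lost in 8 of the 12 fits without 1 library, with 7.73 to 10.18 for LDOX and 5.90 to 6.89 for DFR. In the same 8 fits the list count was 2 without any one of WT replicates 1 and 3 and P10 replicate 3 at 9 DAS, and WT replicates 1 and 2 and P10 replicates 1 and 3 at 16 DAS, and 3 without WT replicate 3 at 16 DAS. In P21 9 of 19 genes fell and none rose with age, beside 11% and 12.7% of all genes, and the median age change was -1.94 against -0.65 in WT, a difference that was not tested. DFR went in P21 from 186 and 410 CPM to 1.76 and 0.615 CPM. The trichome and pigment regulator TTG2, picked with its values known, fell in WT to 0.643, 1.00 and 1.52 CPM and was at 8.38, 19.3 and 23.3 CPM in P10 at 16 DAS, with 3.04 (SE 0.59, adjusted p = 0.0073).

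Photosynthesis genes that passed did so in 1 direction, down in P10 relative to WT. Of 35 tested, 12 passed with a negative interaction and none with a positive one, beside 2.35% and 1.96% of all genes, 34 lay below 0, and the median was -0.76. Median age changes were 0.44 in WT, -0.43 in P10 and 0.49 in P21, and summed levels at 16 DAS were 172013 to 191064 CPM in WT and 114391 to 135796 CPM in P10 against 127720 to 157929 CPM in all libraries of 9 DAS. PSAK, subunit K of photosystem I, had 1986, 1694 and 1827 CPM in WT and 1828, 1799 and 2167 CPM in P10 at 9 DAS, then 2809, 2564 and 2409 CPM in WT and 1130, 1083 and 1405 CPM in P10. Its WT libraries went up and its P10 libraries down, neither past the thresholds alone, and the interaction was -1.18 (SE 0.20, adjusted p = 0.0029).

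LHCB6, a minor antenna protein of photosystem II, had 4959, 4549 and 4211 CPM in WT and 2360, 2312 and 3034 CPM in P10 at 16 DAS after 3567 to 4929 CPM at 9 DAS, and passed with -1.05 (SE 0.20, adjusted p = 0.0072). PSAN, the lumenal subunit of photosystem I, had 2660, 2682 and 2547 CPM in WT and 848, 631 and 1406 CPM in P10 at 16 DAS. It had the largest change of the list, -1.36 (SE 0.30, adjusted p = 0.018), and was lost without P10 replicate 1 at 16 DAS (-1.29). The other 9 were LHCB2.1 and LHCB2.2, whose near-identical copies can share reads, LHCA2, LHCA3, PSAD-1, PSAL, PSBO1, PSBP-1 and PSBQ-2, between -1.03 and -0.76. The count of 12 was sensitive to single libraries, at 7 without WT replicate 2 or 5 without P10 replicate 3 at 9 DAS, and at 5 and 7 without WT replicates 1 and 2 and 3 and 6 without P10 replicates 1 and 2 at 16 DAS. On RPKM it was 4, with a list median that stayed between -0.78 and -0.55 under all scalings. The I-box core stood in 28.6% of the 35 promoters (10 of 35), beside 12.5% of all. In the list of sugar starvation and senescence, where no gene passed, it stood in 35.3% (6 of 17).

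Aliphatic glucosinolate genes rose in WT between the 2 days, and 6 of the 22 tested rose less or fell in P10 by the test of the difference. All 22 rose in WT, 15 rose in P10 and 8 in P21, beside 18.9%, 16.8% and 12.7% of all genes, with median log2 age changes of 2.57, 1.32 and 0.89. The interaction passed downwards for 6 and upwards for none, beside 2.35% and 1.96% of all genes, and the median was -1.41. On log2 RPKM plus 1, 3 passed downwards and 1 upwards. The 6 were IPMDH1 (-2.06) and IIL1 (-1.01) of methionine chain elongation, CYP83A1 (-1.33) and GSTU20 (-1.86) of core synthesis, and the sulfotransferases SOT17 (-2.02) and SOT18 (-1.48) of its last step. IPMDH1 (AT5G14200) had 34.6 to 51.4 CPM in all libraries of 9 DAS, 203, 175 and 242 CPM in WT at 16 DAS and 65.4, 25.1 and 72.0 CPM in P10 at 16 DAS, without overlap of the later groups (SE 0.43, adjusted p = 0.018).

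SOT17 (AT1G18590) started higher in P10, with 33.3, 19.1 and 19.0 CPM against 12.4, 8.47 and 11.7 CPM, and ended lower, with 66.2, 37.5 and 59.1 CPM against 69.1, 110 and 114 CPM (SE 0.40, adjusted p = 0.011). GSTU20 rose in WT from 316, 272 and 300 CPM to 632, 516 and 666 CPM and fell in P10 from 350, 402 and 369 CPM to 281, 122 and 232 CPM (SE 0.31, adjusted p = 0.0035). Neither SOT17 nor GSTU20 differed between P10 and P21 in their age change by the test, and GSTU20 went from 389 and 403 CPM to 323 and 244 CPM in P21. The count of 6 was 3 without WT replicate 1 at 9 DAS or WT replicate 3 at 16 DAS and 11 without P10 replicate 2 at 16 DAS. It was 3 with replicates 1 and 3 alone at 9 DAS, where IPMDH1 was lost with -2.01.

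Cell division genes such as cyclins, Aurora kinases and replication factors fell with age in both genotypes. All 23 tested genes fell in WT and all 23 in P10, beside 17.2% and 14.3% of all genes, with median log2 changes of -3.33 and -3.19, and none passed in the interaction by edgeR's quasi-likelihood test, the Wald test of DESeq2 or limma on RPKM, with 1 of the 23 at an unadjusted p under 0.05. Their median interaction was -0.06 and changed sign with scaling, between -0.14 and 0.09. In P21 17 of the 23 fell, with a median of -2.51. Among 15 leaf growth factors ANT, which prolongs division, passed upwards (1.51, adjusted p = 0.0167) and the abaxial factor YAB1 downwards (-1.30, adjusted p = 0.0227). Over all genes 1.96% passed upwards and 2.35% downwards. The list median of the leaf growth factors was 0.19, or 0.55 with genes at 0 in a group held at their bound. The 7 stomatal lineage markers summed to 115 to 136 CPM in all libraries of 9 DAS and to 20.5 to 37.7 CPM at 16 DAS, with none passing (1 at an unadjusted p under 0.05).

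Mature guard cell markers summed to 74.4 to 113 CPM at 9 DAS, to 167 to 221 CPM in WT at 16 DAS and to 97.3 to 124 CPM in P10 at 16 DAS. All 4 rose in WT, none in P10 and 1 in P21, beside 18.9%, 16.8% and 12.7% of all genes. KAT1, a guard cell potassium channel, passed with 47.3, 56.2 and 49.3 CPM in WT and 25.2, 29.7 and 23.7 CPM in P10 at 16 DAS after 14.3 to 29.7 CPM at 9 DAS (-1.57, SE 0.27, adjusted p = 0.0029). The guard cell markers thus moved with the classes that rose in WT alone, and their part in those results was not tested. Among 6 leaf markers, LHCB2.1 and YAB1 passed downwards, beside 2.35% of all genes.

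In each hormone list other than ABA 1 or 2 genes passed, beside 4.32% of all genes. For auxin, 2 of 26 passed upwards and none downwards, with a median of 0.57. They were the auxin influx carrier LAX2, at mean levels of 27.3 and 34.8 CPM in WT and P10 at 9 DAS and of 4.84 and 25.1 CPM at 16 DAS (1.96, SE 0.34, adjusted p = 0.00342), and the auxin-responsive homeodomain gene HAT2 (1.02, adjusted p = 0.0442). PID was the one called gene among 7 for PID and related kinases with partners, whose median was 0.49. In the cytokinin list 1 of 16 passed, the median was -0.54, and ARR15, a type A response regulator induced by cytokinin, had 22.5, 19.6 and 12.1 CPM in WT and 0, 1.93 and 1.21 CPM in P10 at 16 DAS after 2.77 to 5.48 CPM at 9 DAS (-3.43, SE 0.67, adjusted p = 0.0078). In P21 ARR15 went from 1.03 and 0.317 CPM to 20.6 and 15.4 CPM.

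Of 9 gibberellin genes tested GASA1 passed downwards and the DELLA repressor GAI upwards, beside a median of 0.86. GASA1, a gibberellin-responsive cell wall peptide, rose to 409, 284 and 357 CPM in WT and to 40.2, 29.7 and 34.6 CPM in P10 after 11.7 to 30.2 CPM at 9 DAS (-2.54, SE 0.29, adjusted p = 0.00028). GAI fell in WT from 66.3, 70.8 and 65.2 CPM to 19.0, 20.6 and 15.2 CPM and stood in P10 at 62.0, 64.4 and 83.4 CPM and then 52.8, 42.5 and 40.6 CPM (1.22, SE 0.25, adjusted p = 0.0098). The jasmonate list (14 tested, median 0.06) had 1 called gene, the storage protein VSP2, which in WT at 16 DAS was at 1.29, 0.251 and 0 CPM and in P10 at 21.0, 14.3 and 22.1 CPM (3.48, SE 0.57, adjusted p = 0.0023). Its log2 gap at 16 DAS was wider than the interaction, so the fit put P10 above WT already at 9 DAS. The salicylic acid list (7 tested, median -0.29) also had 1, PR5, a thaumatin-like defence protein. WT held 10.3, 14.6 and 22.0 CPM of PR5 at 16 DAS, and P10 held 1 read in all, a ratio of 88.7 with a counting interval of 15.6 to 3533.

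Few genes of the nutrient lists passed, in both directions, where 1.96% of all genes passed upwards and 2.35% downwards. Of 14 nitrate genes tested 1 passed, downwards, with a list median of -0.56. It was NIR1, nitrite reductase, at 711, 656 and 525 CPM in WT and 175, 200 and 177 CPM in P10 at 16 DAS after 62.0 to 96.2 CPM at 9 DAS (-1.70, SE 0.24, adjusted p = 0.00073). The CC-type glutaredoxins, small redox proteins of nitrate and cytokinin signaling, had the lowest median of all lists, -2.78, with none of 9 past the test in edgeR, 4 at an unadjusted p under 0.05, 1 called by the Wald test of DESeq2 and 3 by limma on RPKM. All 9 rose in WT and in P21 and 3 rose in P10, beside 18.9%, 12.7% and 16.8% of all genes. Median age changes were 4.70, 7.09 and 2.06. At 9 DAS their summed level was already lower in P10, at 10.1 to 11.7 CPM against 17.8 to 38.9 CPM in WT. At 16 DAS their sum was 374 to 473 CPM in WT and 43.0 to 73.8 CPM in P10. Their sequences are close and reads can be shared among them. In the phosphate list, 2 of 8 passed upwards, SQD1 of sulfolipid synthesis (1.21, adjusted p = 0.0132) and the glycerophosphodiesterase SRG3 (3.48, adjusted p = 0.0409), and the median was 1.16, with median age changes of -0.06 in WT, 1.85 in P10 and -1.02 in P21.

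The iron list (11 tested, median 0.13) had 1 gene up and 1 down, beside 1.96% and 2.35% of all genes. BHLH38, an iron-deficiency regulator, had 1066, 1290 and 503 CPM in P10 at 16 DAS and 16.1, 53.2 and 27.3 CPM in WT, after 247, 151 and 169 CPM and 86.3, 32.9 and 96.5 CPM at 9 DAS (3.46, SE 0.79, adjusted p = 0.046). It passed without P10 replicate 3 at 16 DAS, and without WT replicate 2 at either day, and was lost in the other 9 fits that leave out 1 library, with 3.12 to 3.70. The ferritin gene FER3 passed downwards (-0.99, adjusted p = 0.0485). IRT1, the iron transporter listed as a root marker, passed upwards with 23 reads over WT and 1 over P10 at 9 DAS and 0 and 53 respectively at 16 DAS, and FRO2, its partner reductase, had 27.7, 52.1 and 20.5 CPM in P10 at 16 DAS and 0.924 to 6.53 CPM elsewhere in WT and P10 (4.13, SE 0.75, adjusted p = 0.0049).

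Cell wall loosening and water channel genes (26 tested) had a median of -0.65. Of these, 2 passed downwards and none upwards, beside 2.35% and 1.96% of all genes. Those that passed were the wall enzyme XTH24 (-3.29, adjusted p = 0.0262) and the aquaporin PIP1;1 (-1.34, adjusted p = 0.0062). Summed levels of this list at 16 DAS were 10840 to 11736 CPM in WT and 5750 to 6460 CPM in P10, with no overlap, after 3356 to 5718 CPM at 9 DAS. None of 17 genes of sugar starvation and senescence passed in edgeR (4 at an unadjusted p under 0.05, and 1 called by the Wald test of DESeq2), with a median of -0.01 and summed levels that were already lower in P10 at 9 DAS, 506 to 699 CPM against 956 to 1681 CPM.

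**Figure D4:**
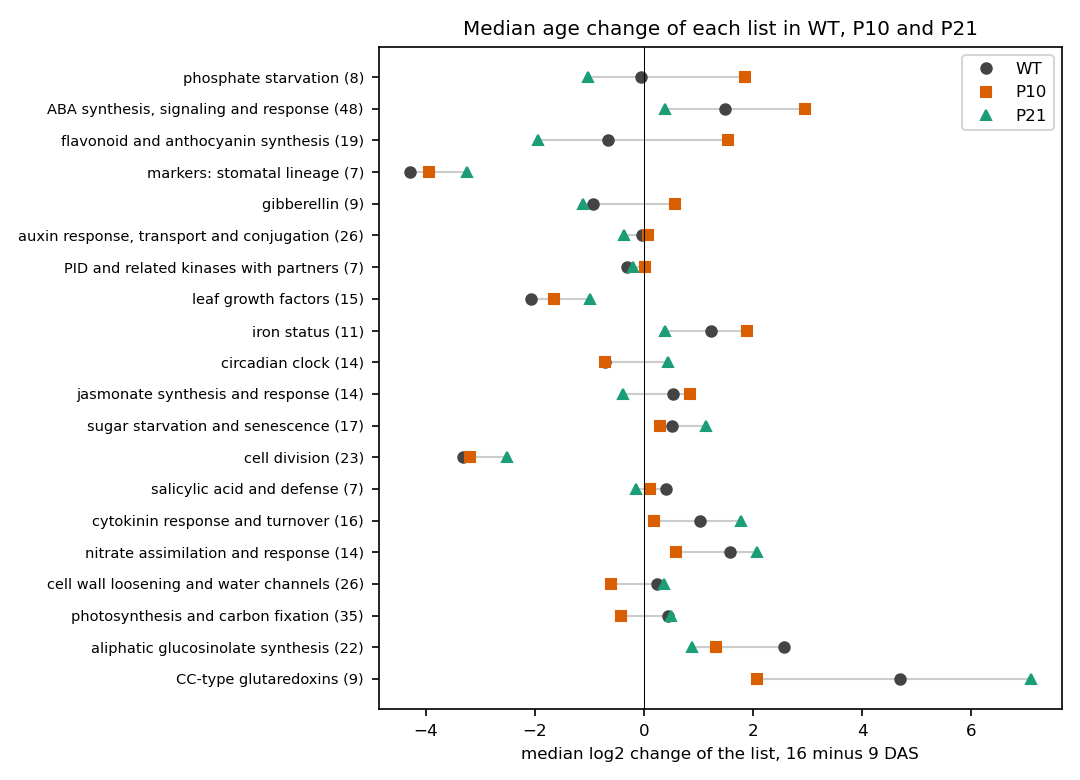
Median log2 change from 9 to 16 DAS in WT, P10 and P21 for each gene list, with the number of tested genes in brackets. P21 lay on the side of WT away from P10 for the ABA (0.38 against 1.49 and 2.95), flavonoid (-1.94 against -0.65 and 1.53) and phosphate lists, and all genotypes fell together in cell division.

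Age changes of P10 and P21 were compared directly over all genes, in a fit of the 16 libraries with values. They differed in 2100 of 16499 genes tested, or 12.7%, with 947 higher (5.74%) and 1153 lower (6.99%) in P10. Leaving out P21 replicate 2 at 9 DAS gave 1331 genes and leaving out P21 replicate 3 at 16 DAS gave 1196, each with 1 library left in that group, which was assumed to vary like the others. Of the genes named by list, RD29B differed by 8.94, HAI1 by 5.81, KIN1 by 5.89, LDOX by 9.09, 5MAT by 6.93, DFR by 8.86, PSAN by -1.81, PSAK by -1.26 and LHCB6 by -1.19, all past the thresholds, and IPMDH1, SOT17 and GSTU20 did not pass. These genes, like those named by class, were picked by an interaction that used the same P10 libraries. Their differences between P10 and P21 are thus descriptions. P21 does not share the library index of P10 at 9 DAS, so index and line cannot be told apart here either.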

How the data were processed

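Stranded mRNA libraries were made from WT, P10 and P21 leaves of both days. The authors mapped the reads to TAIR10 with CLC Genomics Workbench at default settings. The deposited counts are unique and total gene reads per gene region, and the deposited RPKM were computed by the authors from total reads and region length. The tables also hold fold changes and p-values by which the authors compared each line with WT (Baggerley test), which were not used, and 411 further per-sample columns were not used. P21 replicate 1 was not analysed here.

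Unique gene reads of the 12 WT and P10 libraries (1193042 to 4695692 reads) entered edgeR 4.0.16 (R 4.3.3) after filterByExpr, with TMM factors, 1 mean per genotype and day, 8 residual degrees of freedom and robust quasi-likelihood F tests. The Benjamini-Hochberg adjustment ran over all genes kept, 15932 of 28642, and calls needed an adjusted p under 0.05 and a log2 value beyond 0.75, the cut-offs of the study. P21, with 2 libraries per day, entered a fit of all 16 libraries over 16499 genes. The test was checked on simulated counts.

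The gene classes and the gene lists were chosen with earlier results of these data known, so they are described by counts and medians and not tested. Named genes are PID, in each of 5 classes the 6 with the largest interaction among genes with a mean of at least 50 reads that were called in every fit without 1 library, the 3 largest in each list with at least 3 called genes, and 4 clock genes. All others were named after their values were seen. Symbols came from RefSeq TAIR10.1, where 28009 loci matched and 10588 had a symbol, and promoters were cut from the same assembly. Of the matched loci 10117 had the same first base as in the deposited tables. Promoter windows and distances thus refer to the RefSeq start, which can differ from the start of the gene region counted. Counting intervals are 95% exact and, like the floor of 3 reads over a group, cover counting error only.

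Alternatives were DESeq2 1.42.0 size factors and Wald test, no filter, the study's filter, all libraries, a replicate block, total gene reads, limma 3.58.1 on log2 RPKM with pseudocounts of 1 and 0.1 or a minimum mean RPKM of 1, no fold threshold, glmTreat, replicates 1 and 3 alone at 9 DAS, and each library left out.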

Additional observations from a re-analysis of the deposited data

Results flagged for a closer look

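Results in this group are those where the change with age differed between genotypes by a test of the difference itself. Groups of 3 libraries were too small for a check of single outlying samples. The P10 minus WT difference changed with age in 688 genes, and the age change differed between P10 and P21 in 2100 genes. Among the genes that moved in opposite directions in WT and P10, the log2 interaction was 5.46 for MBP1, 3.51 for OZF1, -3.24 for RAV1, 2.40 for AT5G66052, -2.38 for AT5G14120 and -2.30 for ASE2. WT and P10 libraries of these genes did not overlap at 16 DAS. They were picked for large interactions, so this gap follows largely from the pick, and the share over all genes is not given.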

How the results depend on the processing

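No gene followed through the 25 alternatives whose interaction passed changed its sign in any of them. Genes named by class were picked as called in every fit without 1 library. Those 12 fits could therefore not change their sign, and large interactions were favoured in the pick. Counts of genes carry no sign, so a change of direction could not be seen in them. They were run in the same 25 alternatives, or in 20 for the difference between P10 and P21. Of the clock genes, none of which passed, CCA1 ran from -1.41 to 0.55, LHY from -2.14 to 1.48, GRP7 from -3.01 to 2.29 and PRR5, in 24 alternatives, from -3.06 to 4.0. The share of positive calls among the interaction genes turned from 45.5% to between 74.7% and 76.0% on RPKM. Of the 688 interaction genes 653 were shared with DESeq2 size factors, 625 with the Wald test of DESeq2 and 459 with log2 RPKM plus 1. Testing against a log2 fold of 0.75 (glmTreat) left 88 interaction genes, 3210 changed with age in WT and 2558 in P10, differences from WT in 6 genes at 9 DAS and 628 at 16 DAS, classes of 17 (WT rises), 21 (WT falls), 19 (P10 alone rises) and 7 (P10 alone falls), and 5 ABA, 2 flavonoid, 0 photosynthesis and 1 glucosinolate genes. With the 3 RPKM settings (pseudocount of 1, of 0.1, minimum mean of 1) the class of WT rises held 86, 60 and 77 genes and that of WT falls 212, 203 and 200. P10 alone rose in 191 with a pseudocount of 1 and in 185 with the minimum, and P10 alone fell in 41 with 0.1 and 43 with the minimum. ABA genes numbered 21 with a pseudocount of 1 and 21 with the minimum, flavonoid genes 8 with a pseudocount of 1, photosynthesis genes 4 in all 3 settings and glucosinolate genes 3 in all 3. The Wald test gave 107 genes at 9 DAS, 18 ABA genes and 10 glucosinolate genes. At 9 DAS 32 genes passed on RPKM plus 0.1 and 29 with replicates 1 and 3 alone, where glucosinolate genes numbered 3, and without a filter flavonoid genes numbered 3. The cause of these shifts was not tested, except that glmTreat is stricter by construction.

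Leaving out 1 library gave 380 to 775 interaction genes, 5308 to 5920 for age in WT, 4316 to 5158 for P10 age, 22 to 81 genes at 9 DAS, 1945 to 2617 at 16 DAS and 1196 to 2198 between P10 and P21. Classes held 95 to 216 (WT rises), 52 to 126 (WT falls), 47 to 119 (P10 alone rises) and 46 to 116 genes (P10 alone falls), and lists 8 to 13 ABA, 2 to 6 flavonoid, 3 to 18 photosynthesis and 3 to 11 glucosinolate genes.

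The replicate numbers did not pair the samples throughout, though replicate 2 at 9 DAS, set apart by clock genes, went best with its same-numbered partner. Deviations of same-numbered WT and P10 libraries correlated at -0.125, 0.482 and -0.093 at 9 DAS and at 0.029, 0.003 and -0.006 at 16 DAS, and WT replicate 3 of 9 DAS went best with P10 replicate 1 (0.542). With a replicate block within each day 760 interaction genes passed, 583 of them shared, and 78 passed between P10 and WT at 9 DAS (52 without the block) and 2507 at 16 DAS. The age change passed in 5865 genes of WT and 5033 of P10, and differed between P10 and P21 in 1754.

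Depth limits low genes: groups with 0 to 3 reads allow only a bound or a wide ratio, and a difference there that did not pass was not detectable at this depth. With 3 libraries per group, and 2 for P21, the list counts rest on few degrees of freedom.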

Other observations

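Some groups outside the lists were formed from words in the gene annotation after the values were seen, so their counts are descriptions. Of 85 genes annotated with words of ribosome assembly, 8 passed with a negative interaction (2.35% of all genes) and none with a positive one (1.96%), 63 lay below 0 and the median was -0.55. Median log2 age changes were 0.23 in WT, -0.26 in P10 and 0.77 in P21. NOP56, a core protein of the small nucleolar particles that modify ribosomal RNA, had 118, 128 and 135 CPM in WT and 41.1, 38.2 and 27.3 CPM in P10 at 16 DAS after 53.7 to 112 CPM at 9 DAS, with an interaction of -1.50 (SE 0.31, adjusted p = 0.012). In P21 it rose from 34.1 and 45.4 CPM to 95.7 and 141 CPM. Fibrillarin FIB2, its partner, had 55.6, 51.7 and 44.7 CPM in WT and 15.1, 12.7 and 6.43 CPM in P10 at 16 DAS, with -1.56 (SE 0.41, adjusted p = 0.041). The FIB2 call held in only 3 of the 12 fits without 1 library, those without WT replicate 3 or P10 replicate 3 at 9 DAS and without P10 replicate 1 at 16 DAS, and its values in the 9 others were -1.25 to -1.74. Among 51 genes annotated with words of tRNA synthetases 4 passed downwards and none upwards, with a median of -0.39. Among 160 pentatricopeptide repeat genes 2 passed downwards and none upwards, with a median of -0.07. The shares over all genes were again 2.35% downwards and 1.96% upwards.

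Of 116 genes annotated with words of heat shock proteins or chaperonins 9 passed downwards and 2 upwards, beside 2.35% and 1.96% of all genes. Their median was -0.29. The chaperone HSP81-2 had 400, 438 and 623 CPM in WT and 169, 153 and 152 CPM in P10 at 16 DAS after 138 to 225 CPM at 9 DAS, with -1.75 (SE 0.28, adjusted p = 0.0021). HSP81-3, a near-identical copy with which it may share reads, had 338, 365 and 478 CPM and 130, 135 and 117 CPM at 16 DAS, with -1.65 (SE 0.32, adjusted p = 0.0093). P21 was at 539 and 907 CPM for HSP81-2 and 460 and 651 CPM for HSP81-3 at 16 DAS. Of 42 lipid transfer protein genes 3 passed upwards and 2 downwards, beside 1.96% and 2.35% of all genes.

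Leaf ferric reductases rose less in P10. FRO6 rose from 44.4 to 52.4 CPM to 824, 714 and 728 CPM in WT and from 59.5 to 75.2 CPM to 239, 302 and 334 CPM in P10, with -1.78 (SE 0.22, adjusted p = 0.00031). FRO7, its neighbour in the genome and close in sequence, had -1.91 (SE 0.36, adjusted p = 0.0073). SPL4, a promoter of phase change and flowering, had 33.4, 22.3 and 35.6 CPM in WT and 5.87, 2.32 and 4.82 CPM in P10 at 16 DAS after 1.99 to 6.86 CPM at 9 DAS, with -3.37 (SE 0.54, adjusted p = 0.0019). Among other transcription factors, GBF2, which binds the G-box, fell in WT to 12.2, 10.5 and 8.34 CPM and rose in P10 to 32.7, 36.7 and 39.0 CPM, with 2.1 (SE 0.31, adjusted p = 0.001). PIF3, a phytochrome-interacting bHLH, reached 67.1, 46.0 and 55.1 CPM in P10 at 16 DAS against 10.5 to 14.4 CPM in WT, with 1.5 (SE 0.33, adjusted p = 0.015). ATHB13 had 2.52, 4.63 and 6.43 CPM in P10 at 16 DAS against 15.9 to 20.6 CPM in WT, with -1.87 (SE 0.40, adjusted p = 0.013), and HB33 fell in both genotypes, to 0.251 to 3.03 CPM in WT and 4.63 to 6.43 CPM in P10, with 3.31 (SE 0.60, adjusted p = 0.0046). In the promoters of 11 iron status genes the ABRE core stood in 7, or 63.6%, beside 9.94% of all. The G-box, which can overlap it, stood in 6 of the 11. The ABRE core stood in 27.1% of 48 ABA promoters (13) and in 22.9% of 35 photosynthesis promoters (8), whose calls were all negative. It also stood in 50% of 14 clock promoters (7), of which no gene passed.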
